A study of Mus musculus with 20 samples.

Results

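The promoters described here belong to genes that the deposited table marks for spermatogenesis, and they were followed in mouse sperm DNA after prenatal exposure to di-(2-ethylhexyl)phthalate (DEHP), a plasticizer. Of 22480 promoter-probes, 383 carried the spermatogenesis mark. The imprinted gene among them and 32 genes of families excluded by symbol (such as the PIWI and Tudor proteins, protamines, histones and the hormone receptors and steroid enzymes of the testis) were left out, which gave 350 promoters. The rule reads no measured value, although it was set with earlier results of these data known.

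Males of the inbred strains C57BL/6J and FVB/N were born to mothers that received DEHP at 300 mg/kg/day in corn oil by mouth from gestation day 9 to 19, or corn oil alone. Sperm from the epididymis and vas deferens was taken from these F1 males at 8 weeks, with 5 libraries in each of the 4 groups (controls and DEHP of either strain), and no allele or transgene was introduced. Methylated DNA fragments were captured with a methyl binding domain and sequenced (MBD-sequencing), so a promoter with more reads holds more captured methylated CpG. DEHP and control DNA were submitted for sequencing separately, and treatment and submission therefore cannot be told apart in any comparison with DEHP below. By the paper, DEHP libraries also had more read-pairs on average and slightly longer reads than control libraries. Depth and read length thus differ with treatment as well.

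Spermatogenesis runs from spermatogonia, which divide by mitosis, through spermatocytes, which recombine and segregate their chromosomes in meiosis, to spermatids, which condense the nucleus and build the acrosome and the flagellum. Germ cells erase DNA methylation before birth and male germ cells lay down most of it again in the fetal testis. In sperm, CG-rich promoters are typically free of methylation, whereas CG-poor promoters and gene bodies are typically methylated, and sperm no longer transcribe the genes described here.

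Each promoter-probe covered 2200 bp, from 2 kb upstream to 200 bp downstream of the gene start on mm10. The starts of 6 promoters are shown because the results below turn on them, with 250 bases before and 50 bases after the RefSeq start on GRCm38.p6, written in the direction of the gene, and with capitals for CG, the site where methylation is captured. Prdm9 (chr17:15564305-15564604, minus strand), Fscn3 (chr6:28427651-28427950, plus strand) and Spink2 (chr5:77211422-77211721, minus strand) had fewer reads in DEHP sperm. Spata6 (chr4:111719760-111720059, plus strand) and Svs2 (chr2:164238292-164238591, minus strand) had more. Dazl (chr17:50293571-50293870, minus strand) stands for germ cell genes with a CG-rich start. The RefSeq start of Prdm9 lay 14 bp from the start that the probe was built on, and the other 5 starts were identical.
Prdm9: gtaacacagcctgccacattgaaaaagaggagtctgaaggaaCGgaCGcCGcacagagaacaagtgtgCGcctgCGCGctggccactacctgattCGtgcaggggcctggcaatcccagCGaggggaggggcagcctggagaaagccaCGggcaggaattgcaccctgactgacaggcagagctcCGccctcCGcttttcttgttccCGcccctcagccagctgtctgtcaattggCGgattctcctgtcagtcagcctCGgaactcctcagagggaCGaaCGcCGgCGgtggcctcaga
Fscn3: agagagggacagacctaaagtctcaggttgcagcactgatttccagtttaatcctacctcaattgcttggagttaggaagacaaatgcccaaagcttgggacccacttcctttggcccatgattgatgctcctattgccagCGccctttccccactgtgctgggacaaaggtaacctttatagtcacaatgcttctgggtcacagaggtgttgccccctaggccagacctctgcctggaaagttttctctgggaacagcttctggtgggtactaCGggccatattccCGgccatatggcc
Spink2: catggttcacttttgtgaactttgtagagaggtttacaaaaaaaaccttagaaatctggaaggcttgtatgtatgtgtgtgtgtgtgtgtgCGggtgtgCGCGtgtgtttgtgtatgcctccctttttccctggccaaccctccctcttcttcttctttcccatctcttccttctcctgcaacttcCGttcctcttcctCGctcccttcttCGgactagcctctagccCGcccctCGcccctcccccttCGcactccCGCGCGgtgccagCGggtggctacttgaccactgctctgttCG
Spata6: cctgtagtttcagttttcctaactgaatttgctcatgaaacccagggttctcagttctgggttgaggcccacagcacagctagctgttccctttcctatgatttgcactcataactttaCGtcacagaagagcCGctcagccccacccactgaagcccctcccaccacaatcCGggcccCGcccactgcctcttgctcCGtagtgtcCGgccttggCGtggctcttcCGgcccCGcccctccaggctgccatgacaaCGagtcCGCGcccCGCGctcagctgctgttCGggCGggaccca
Svs2: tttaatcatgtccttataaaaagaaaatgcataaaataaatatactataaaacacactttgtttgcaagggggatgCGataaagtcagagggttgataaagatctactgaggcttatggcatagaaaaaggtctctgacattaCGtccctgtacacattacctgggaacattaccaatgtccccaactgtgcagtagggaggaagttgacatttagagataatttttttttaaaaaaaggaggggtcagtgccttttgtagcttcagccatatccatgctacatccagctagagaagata
Dazl: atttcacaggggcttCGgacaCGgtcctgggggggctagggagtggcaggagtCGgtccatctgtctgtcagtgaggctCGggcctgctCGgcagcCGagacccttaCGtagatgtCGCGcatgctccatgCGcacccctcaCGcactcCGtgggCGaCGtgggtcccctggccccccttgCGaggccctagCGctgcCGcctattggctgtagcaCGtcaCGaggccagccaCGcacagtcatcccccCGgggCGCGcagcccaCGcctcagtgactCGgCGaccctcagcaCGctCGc
These windows held 28 CG in Dazl, 18 in Prdm9, 16 in Spata6, 14 in Spink2, 3 in Fscn3 and 2 in Svs2. Promoters on both sides of the CG range were thus among those that differed with DEHP.

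The promoters of spermatogenesis genes were mostly low in captured DNA. Values are the authors' mean and SD of normalized reads over the 5 libraries of a group, and every probe has the same length. Capture also depends on the number of CG sites in a probe, so a difference in level between genes is a difference in captured DNA and need not be one in the share of methylated sites. Over the 350 promoters the median of the authors' means was 4.5 normalized reads for C57BL/6J controls, 4.5 with DEHP, 3.15 in FVB/N controls and 4.4 with DEHP. Over all 22480 promoters it was 5.0, 5.3, 3.0 and 4.9 in the same order. A mean under 1 normalized read was found for 7.43%, 5.43%, 10.3% and 7.14% of the 350 promoters in these groups. Over all promoters the shares were 8.8%, 4.66%, 14.8% and 8.04%. In 331 promoters the mean of the 4 groups reached 1 normalized read, and in 37 it reached 15 (10.6%, against 13.1% of all promoters). Of the 350, 289 stayed under 15 in every group. Spread between libraries was wide, since at means of 5 or more the SD was 0.356, 0.378, 0.52 and 0.321 of the mean as a median over promoters, in the same order of groups.

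Among the 37 promoters with a mean of the 4 groups of 15 or more normalized reads, 33 had expression values of testis cell types (described below), and 24 of these (72.7%) were highest in spermatids, against 56.8% of all promoters at that level. Acrbp, whose protein binds proacrosin in the acrosome, had an authors' mean ± SD of 81.2 ± 28.8 normalized reads in C57BL/6J controls and 46.4 ± 16 in FVB/N controls. Fscn3, a testis fascin that bundles actin, had 71 ± 20.5 and 56.5 ± 11.2, and Catsper4, a subunit of the sperm calcium channel, had 56.4 ± 23.7 and 28.4 ± 7.8. Odf3, a gene of the outer dense fibres of the tail, had 51 ± 23.7 and 37.5 ± 7.6. These 4 probes also reach into a coding exon of a neighbouring gene (Ing4 at Acrbp, Arf5 at Fscn3, Cnksr1 at Catsper4 and Scgb1c1 at Odf3, by the GENCODE annotation), and the Acrbp probe holds no exon of Acrbp itself. Reads of a promoter and of a neighbour's exon cannot be told apart within such a probe. A coding exon listed under another gene symbol lay under 48 of the 350 probes (13.7%), against 14.9% of all probes. It lay under 9 of the 37 highest (24.3%), against 27.7% of all probes at that level. The 48 include Spata24, where the other gene is listed as SPATA24, the same symbol in capitals, so the 48 may be too high.

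At the other end, Atrx, a chromatin remodeller on the X chromosome, had 0.2 ± 0.5 normalized reads in C57BL/6J controls and 0.4 ± 0.6 in FVB/N controls. Ggnbp2 and Pafah1b1, which encodes a regulator of dynein, had 0.5 ± 1.1 and 0.5 ± 0.7 in C57BL/6J controls, and Catsperb, an accessory subunit of the sperm calcium channel, had 0.5 ± 0.6. The 11 X-linked promoters had medians of 1 and 1.4 normalized reads in C57BL/6J and FVB/N controls, against 4.7 and 3.3 for the 339 autosomal ones. Over all promoters the medians were 1.4 and 1.2 on the X chromosome and 5.2 and 3.1 on autosomes. Only part of the sperm carry the X chromosome, and the 11 probes held a median of 40 CG sites, against 56 in the 339. The part of either in the gap was not tested.

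Level varied with CG content, though not in one direction. The 350 probes held 6 to 151 CG sites with a median of 55, against 45 over all promoters. The 80 promoters with 21 to 40 CG sites had a median of 9.6 normalized reads in C57BL/6J controls and the 8 with more than 120 had 1.55. The same classes of all promoters had 14.2 and 2.1. The 36 promoters with 20 CG sites or fewer had 8.75, below the class of 21 to 40, and all promoters of that class had 3.5. In the 37 promoters with a mean of the 4 groups of 15 or more, the median number of CG sites was 31 in the probe and 9 within 300 bases before to 200 bases after the start. In the 71 promoters under 2 normalized reads it was 71 and 39. Mei1 with 73 CG sites and Trip13 with 93, both genes of meiotic recombination, had 27.4 ± 8.8 and 21.1 ± 7.7 normalized reads in C57BL/6J controls and so lay high for their CG content. A coding exon of Brd9 lies under the Trip13 probe.

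**Figure D1:**
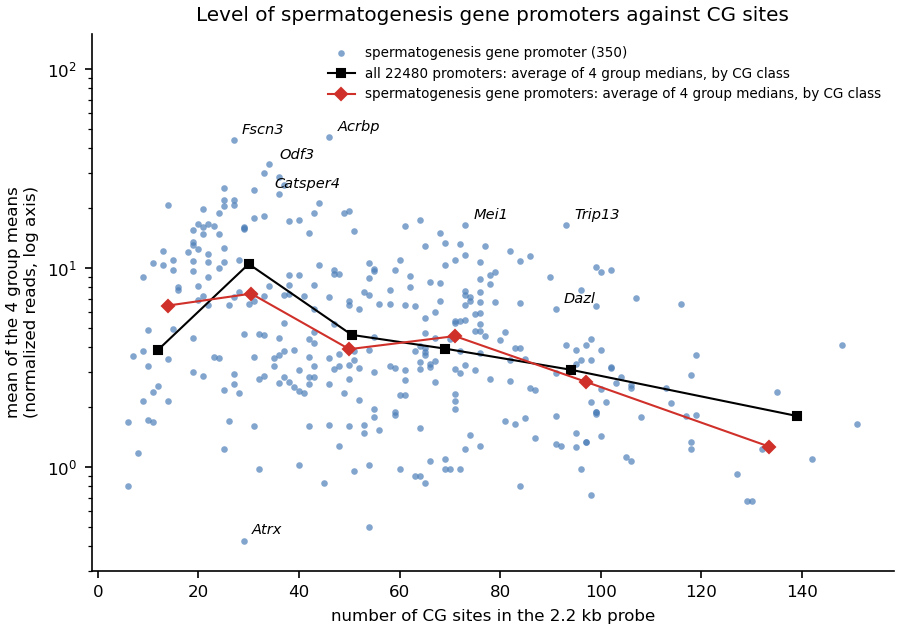
Level of each of the 350 promoters (mean of the 4 group means in normalized reads, log axis) against the number of CG sites in its probe, with squares and diamonds for all promoters and spermatogenesis gene promoters in classes of CG content. Levels are lower in the classes above 40 CG sites than in the class just below, and Mei1 and Trip13 lie above most promoters of like CG content.

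**Figure D2:**
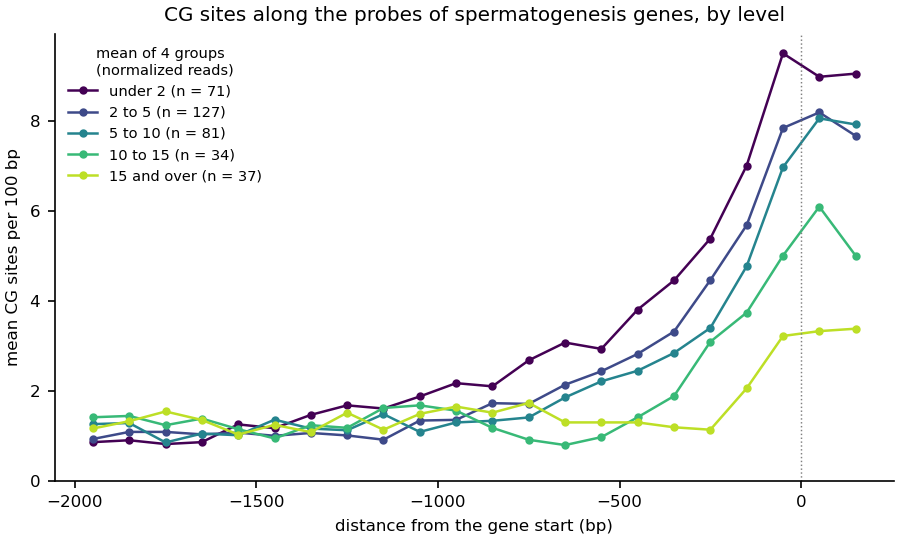
Mean number of CG sites per 100 bp along the probes of the 350 promoters, against the distance from the gene start in bp, with 1 line for each level class (mean of the 4 groups). The lines lie close together far upstream and part near the start, where the 71 promoters under 2 normalized reads hold the most CG sites and the 37 at 15 or more hold the fewest.

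Expression values of an independent dataset, added to the table by the authors on a scale that is not given in the sources used here, were at hand for 336 of the 350 genes. They were highest in spermatids for 130 genes (38.7%), in spermatocytes for 101 (30.1%), in spermatogonia for 66 (19.6%) and in Sertoli cells for 39 (11.6%). The shares over all promoters with such values were 34.4%, 21.4%, 22.4% and 21.8%. The highest value was taken without a lower limit or a least difference. Svs2, with 3.36 in spermatids and 3.11 in Sertoli cells, thus counts as a spermatid gene. Promoters of the spermatid genes held a median of 43.5 CG sites and had 6.95 normalized reads in C57BL/6J controls, and those of the spermatogonia genes held 71 and had 3. The same order was found over all promoters, with 7.3 and 4.1 normalized reads for the 5893 and 3833 genes of these classes. Sequence motifs were counted in the starts of the 269 promoters whose RefSeq window of 300 bases lay inside the probe. The cAMP response element TGACGTCA, bound in spermatids by CREM, was present in 13 (4.83%), against 2.51% of 15985 windows. The E-box CACGTG, bound by basic helix-loop-helix factors, was present in 40 (14.9%), against 8.21%, and Bax, Boll and Brdt were among them. Both motifs read the same on either strand and neither contains the other. Each contains a CG, and the 350 probes held a median of 55 CG sites, against 45 over all promoters. The windows were not matched for CG content, so its part in these shares was not tested.

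Comparison of DEHP with control sperm asked whether prenatal exposure left a mark on these promoters in each strain. Change is given as the log2 ratio of the authors' means, DEHP over control, after adding 1 normalized read to each, with a standard error derived from the authors' SDs. Single libraries were not used here, so no test was made. In its place 2 groups are called separated where the widest ranges that 5 libraries with those means and SDs can span (the mean plus and minus 1.79 SD, widened for rounding) do not overlap, so that every library of one group lies above every library of the other. The values as deposited do not share a common centre: over all promoters the median log2 ratio was -0.10 for C57BL/6J and 0.35 for FVB/N.

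In C57BL/6J, 0 of the 350 promoters were separated with more reads in DEHP (0.249% of all promoters) and 2 with fewer (1.42% of all promoters), which were 1110017D15Rik and Spink2. In FVB/N, 2 were separated with more reads (0.774% of all promoters), Spata6 and Svs2, and 5 with fewer (0.859% of all promoters), Fscn3, Mea1, Nme5, Prdm9 and Rpl10l. As deposited none was separated in both strains, and 39 of all promoters (0.173%) were, each in the same direction. Read against these shares, the spermatogenesis genes did not stand apart by their count. All 5 promoters that were lower in FVB/N were also separated when the groups were scaled to equal sums or to equal medians, and 12 in all were lower with equal medians, under which 3.25% of all promoters were. Spink2 was among these 12 and, with equal medians, was thus separated in both strains with fewer reads in DEHP. Spata6 and Svs2 were separated with equal sums but not with equal medians. 1110017D15Rik and Spink2 were separated with equal medians but not with equal sums, under which 4 other promoters (Cep131, Dpy19l2, Mkks and Sstr1) were higher in C57BL/6J DEHP (1.02% of all promoters), named here after their values were seen.

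**Figure D3:**
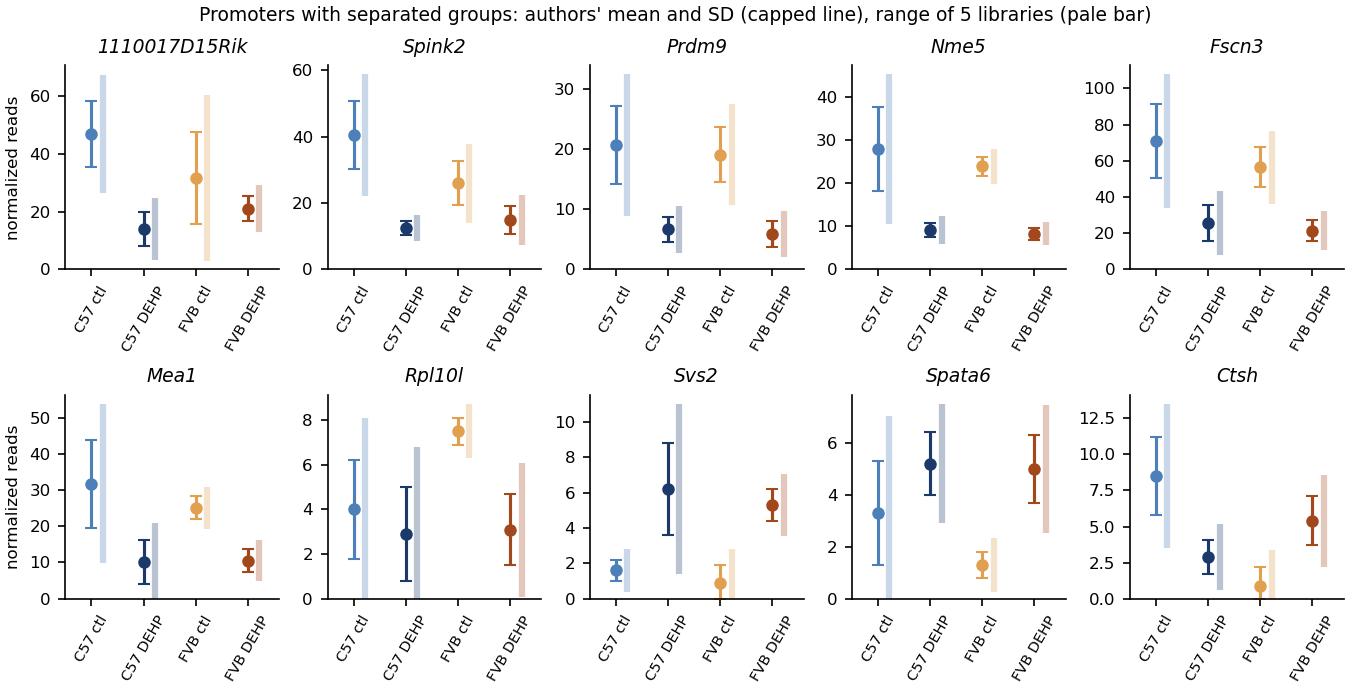
Authors' mean (point) and SD (capped line) of normalized reads in the 4 groups for the 10 promoters with separated groups in a comparison of treatments or of control strains, with the range that 5 libraries can span as a pale bar and a linear axis from 0. The upper row and Mea1 and Rpl10l have control means above DEHP means in both strains as deposited, Svs2 and Spata6 have DEHP above controls, and Ctsh goes opposite ways in the strains.

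Prdm9 encodes the histone methyltransferase that places the hotspots of meiotic recombination. Its promoter had 20.7 ± 6.5 normalized reads (authors' mean ± SD) in C57BL/6J controls, 6.7 ± 2.1 with DEHP, 19.1 ± 4.6 in FVB/N controls and 5.9 ± 2.1 with DEHP. Both control groups thus lay near each other and both DEHP groups lay well below them. In FVB/N the range of controls, 10.7 to 27.5, did not reach that of DEHP, 2.0 to 9.8. In C57BL/6J the ranges, 8.93 to 32.5 and 2.8 to 10.6, overlapped by a small margin. The log2 ratio was -1.49 ± 0.26 (SE) for C57BL/6J and -1.54 ± 0.25 for FVB/N. It stayed between -1.61 and -0.86 for C57BL/6J and between -2.21 and -1.54 for FVB/N under every alternative scale, pseudocount and centring tried. The probe lies on chromosome 17 from 15564141 to 15566340, holds 72 CG sites and includes an exon of Prdm9, and an exon of Gm6686 also lies under it.

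Nme5 is a member of the nucleoside diphosphate kinase family found in the sperm flagellum. It had 28 ± 9.7 normalized reads in C57BL/6J controls, 9.2 ± 1.7 with DEHP, 24 ± 2.2 in FVB/N controls and 8.3 ± 1.4 with DEHP. The FVB/N groups were tight and lay far apart, at 19.9 to 28.1 and 5.66 to 10.9, with a log2 ratio of -1.43 ± 0.11. In C57BL/6J the log2 ratio was -1.51 ± 0.24, and the wider controls, 10.5 to 45.5, overlapped DEHP, 6.02 to 12.4. A coding exon of 4933408B17Rik lies under this probe.

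Fscn3 had 71 ± 20.5 and 25.7 ± 9.9 normalized reads in C57BL/6J controls and DEHP, and 56.5 ± 11.2 and 21.5 ± 6 in the FVB/N groups. The log2 ratios were -1.43 ± 0.30 and -1.35 ± 0.21, and the FVB/N ranges, 36.3 to 76.7 and 10.6 to 32.4, did not overlap. Mea1, the male-enhanced antigen of germ cells, had 31.7 ± 12.2 and 10.1 ± 6 for C57BL/6J and 25.1 ± 3.2 and 10.5 ± 3.1 for FVB/N, with log2 ratios of -1.56 ± 0.42 and -1.18 ± 0.19. Both promoters had similar levels in the DEHP groups of both strains. A coding exon of Klhdc3 lies under the Mea1 probe. Rpl10l, an autosomal retrogene of a ribosomal protein that serves in meiosis, was low and differed in FVB/N, where controls had 7.5 ± 0.6 and DEHP 3.1 ± 1.6, with a log2 ratio of -1.05 ± 0.26. In C57BL/6J it had 4 ± 2.2 and 2.9 ± 2.1, and the log2 ratio of -0.36 ± 0.45 turned to 0.07 with equal sums.

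Spink2, an inhibitor of serine proteases in the acrosome, had 40.5 ± 10.2 normalized reads in C57BL/6J controls and 12.4 ± 2.1 in C57BL/6J DEHP, with ranges of 22.1 to 58.9 and 8.5 to 16.3. In FVB/N it had 25.9 ± 6.6 and 14.9 ± 4.2, and these ranges overlapped as deposited but not with equal medians. The log2 ratio was -1.63 ± 0.19 for C57BL/6J and -0.76 ± 0.23 for FVB/N. The RIKEN gene 1110017D15Rik had 47 ± 11.4 and 14.1 ± 5.9 for C57BL/6J and 31.8 ± 16 and 21.1 ± 4.4 for FVB/N, with log2 ratios of -1.67 ± 0.30 and -0.57 ± 0.34. Both promoters were lower in DEHP in either strain by their means, and both had their lowest group in C57BL/6J DEHP. Less the median of promoters of like level, the C57BL/6J ratios shrank to -0.59 in Spink2 and -0.63 in 1110017D15Rik, and those of Nme5, Fscn3 and Mea1 to -0.47, -0.39 and -0.52. In FVB/N, where these last were separated, theirs were -1.09, -1.02 and -0.85.

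Svs2, a major protein of the seminal vesicle, had 1.6 ± 0.6 normalized reads in C57BL/6J controls, 6.2 ± 2.6 with DEHP, 0.9 ± 1 in FVB/N controls and 5.3 ± 0.9 with DEHP. The log2 ratio was 1.47 ± 0.28 in C57BL/6J, where the ranges overlapped, and 1.73 ± 0.35 in FVB/N, where controls ended at 2.83 and DEHP began at 3.55. Spata6, which is needed for the connection of sperm head and tail, had 3.3 ± 2 and 5.2 ± 1.2 for C57BL/6J and 1.3 ± 0.5 and 5 ± 1.3 for FVB/N, with log2 ratios of 0.53 ± 0.33 and 1.38 ± 0.20. Its strains differed in controls more than in DEHP.

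By size alone, 13 promoters had a log2 ratio above 1 in C57BL/6J (5.09% of all promoters) and 36 below -1 (10.7%). In FVB/N 34 were above 1 (14.4%) and 15 below -1 (2.68%). This split depends on the scale: with equal sums it was 30 and 5 in C57BL/6J (14.7% and 2.22% of all promoters), and with equal medians 10 and 55 in FVB/N (3.86% and 13.5%). Past 1 in the same direction in both strains were 6 promoters on each side, of 465 and 396 among all promoters. The higher ones were Svs2, Catsperb, Bbs4, Dpy19l2, Spef2 and Trp63, and the lower ones were Fscn3, Mea1, Nme5, Prdm9, Sstr3 and Tex40. Bbs4, Dpy19l2, Spef2, Trp63, Sstr3 and Tex40 are named after their values were seen. Sstr3, a somatostatin receptor of cilia, had 41.9 ± 15.9 and 9.6 ± 3.3 for C57BL/6J and 24.3 ± 9.7 and 9.3 ± 3.1 for FVB/N, with log2 ratios of -2.02 ± 0.31 and -1.30 ± 0.31. Spef2, a flagellar protein, had 1.4 ± 1 and 5.2 ± 1.9 for C57BL/6J and 0.2 ± 0.4 and 4.7 ± 3 for FVB/N. Dpy19l2, which fixes the acrosome to the nucleus, had 0.7 ± 0.7 and 4.7 ± 1.7 for C57BL/6J and 0.9 ± 1 and 5 ± 4.7 for FVB/N. In these 3 promoters the ranges of control and DEHP overlapped in both strains.

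**Figure D4:**
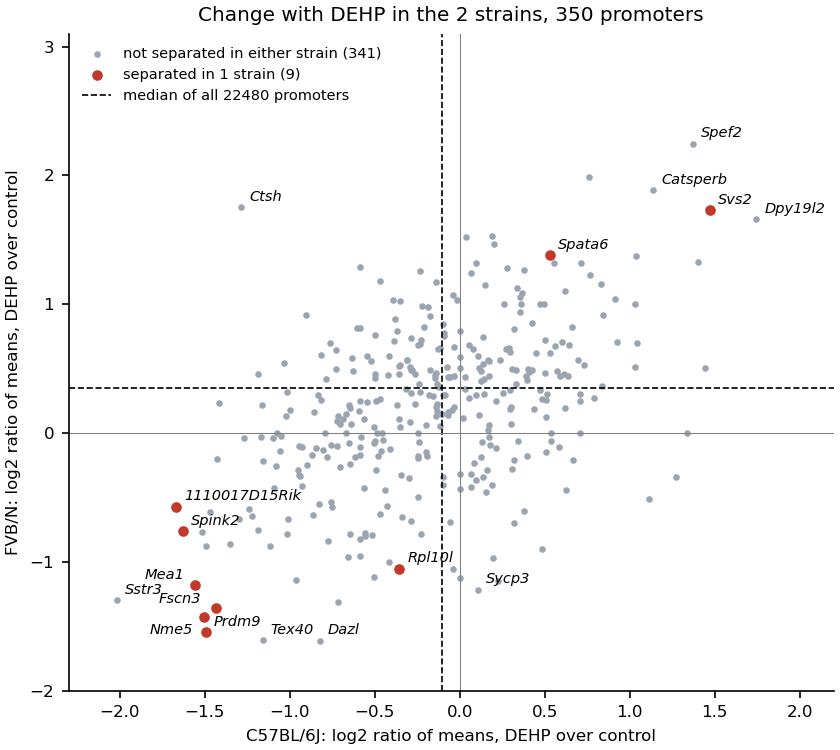
Log2 ratio of the authors' means, DEHP over control, in FVB/N (vertical axis) against C57BL/6J (horizontal axis) for the 350 promoters, with the 9 that were separated in 1 strain in red and dashed lines at the median of all promoters (-0.10 and 0.35). The red promoters below both lines reach -1.67 in C57BL/6J, and Ctsh lies alone at -1.28 and 1.75.

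The median log2 ratio of the 350 promoters was -0.15 in C57BL/6J, where 209 lay below 0, and 0.23 in FVB/N, where 125 did. Both medians were slightly below those of all promoters (-0.10 and 0.35) and changed sign with the scale, to 0.27 in C57BL/6J with equal sums and to -0.31 in FVB/N with equal medians. Change went with level, though level is the mean of the same 4 groups that give the ratios. A promoter high in controls alone can thus enter the highest class, which partly sets the direction there. Nme5, with 28 and 9.2 normalized reads in C57BL/6J controls and DEHP and 24 and 8.3 in FVB/N, is in it. All promoters of a class were chosen in the same way. The 37 promoters with a mean of 15 or more had a median of -0.87 in C57BL/6J, and 36 of them were below 0. All 2938 promoters at that level had -0.96. In FVB/N the same 37 had -0.10, against -0.24. Both medians stayed below 0 with equal sums (-0.33 and -0.19) and with equal medians (-0.94 and -0.77). The 127 promoters of 2 to 5 normalized reads had 0.11 and 0.38 in C57BL/6J and FVB/N, against 0.23 and 0.58 for all promoters at that level, and 28.3% of them were below 0 in FVB/N, against 15.1%. The 81 of 5 to 10 had -0.29 and 0.32, against -0.18 and 0.50. Less the median of all promoters in the same decile of level, the median of the 350 was -0.089 for C57BL/6J and -0.15 for FVB/N, and 32 (9.14%) lay below -1 in FVB/N, against 5.14% of all promoters. In C57BL/6J 13 (3.71%) lay below -1 in this way, against 3.7%. By these medians spermatogenesis gene promoters lay above other promoters of their level among the 37 highest and below them between 2 and 10 normalized reads. The 71 under 2 (0.08 and 0.16, against 0.22 and 0.25) and the 34 of 10 to 15 (-0.59 and 0.12, against -0.56 and 0.20) were also below. No test was made of these differences.

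Genes listed for the spermatogonium and its regulation were 16 of the 350, and the list does not say which testis cell expresses a gene. Their median log2 ratio was -0.42 in C57BL/6J, where 12 were below 0, and 0.08 in FVB/N, where 6 were. With equal sums the C57BL/6J median was 0.06, and with equal medians the FVB/N median was -0.46. Cyp26b1, which degrades retinoic acid, had the highest level, with 23.5 ± 7.5 and 13 ± 6 normalized reads in C57BL/6J controls and DEHP and 14.8 ± 8.1 and 13.4 ± 4.3 in FVB/N. Nanos3, an RNA binding protein of early germ cells, had 20.2 ± 7.5 and 8.9 ± 4.9 for C57BL/6J and 9.7 ± 3.6 and 9.4 ± 4.2 for FVB/N. As deposited, both had their highest group in C57BL/6J controls. Kit, the receptor of stem cell factor, had between 4.7 and 6.0 normalized reads in all groups. Stra8, which starts meiosis in response to retinoic acid, had 9.8 ± 4.2 and 6.3 ± 3.7 for C57BL/6J and 5.3 ± 3.6 and 5.8 ± 2.9 for FVB/N. None of the 16 was separated in either strain, and Dazl was separated in FVB/N with equal medians only.

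Genes of meiosis were 29, with median log2 ratios of -0.19 for C57BL/6J and 0.00 for FVB/N, which moved to 0.25 and -0.09 with equal sums and to -0.25 and -0.62 with equal medians. Beyond Prdm9, no member of this list was separated as deposited, and with equal medians Sycp3 and Fkbp6, the latter named after its values were seen, were separated too, with fewer reads in FVB/N DEHP. Mei1 had 15 ± 6.7 with DEHP in C57BL/6J and 14.1 ± 5 and 9.3 ± 4.7 in controls and DEHP of FVB/N, and Trip13, an AAA ATPase that removes HORMA proteins from chromosome axes, had 14.8 ± 4.1, 14.7 ± 2.7 and 14.7 ± 4.4 in the same groups. The strand break enzyme Spo11 (7.1, 7.2, 6.2 and 6.8 normalized reads in C57BL/6J control and DEHP and FVB/N control and DEHP) and the recombinase Dmc1 (3.8, 5.3, 6.0 and 8.5) had log2 ratios within 0.5 of 0 in both strains as deposited, though Dmc1 had 0.83 in C57BL/6J with equal sums. The synaptonemal complex gene Sycp3 had 2.9 ± 1.9 and 3.2 ± 1 for C57BL/6J and 4.8 ± 1.7 and 1.5 ± 0.5 for FVB/N, with log2 ratios of 0.11 ± 0.35 and -1.21 ± 0.23. Its partner Sycp1 had 4.5 ± 3 and 3.7 ± 2.2 for C57BL/6J and 6.4 ± 2.2 and 3.3 ± 1.5 for FVB/N.

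Sycp1, Sycp3 and Dazl belong to a set of 15 germ cell genes listed for promoters commonly methylated in somatic cells, of which 9 are among the 350. Dmrt1, also in the set, had an expression value of 8.83 in Sertoli cells, against 10.4 in spermatogonia. It is therefore not silent in every somatic cell of the testis. Dazl, an RNA binding protein of germ cells, had 7.5 ± 5.3 and 3.8 ± 1.7 normalized reads for C57BL/6J and 10.6 ± 3.3 and 2.8 ± 1.7 for FVB/N, with a log2 ratio in FVB/N of -1.61 ± 0.34. The FVB/N ranges, 4.56 to 16.6 and 0 to 5.98, overlapped. Brdt, a bromodomain protein of the testis, had 4.2 ± 3.3 and 2.9 ± 1.3 for C57BL/6J and 5 ± 2.6 and 2 ± 1.5 for FVB/N. Outside the 350, Tex12, of the synaptonemal complex, and Tex11, both named after their values were seen, had log2 ratios in FVB/N of -1.64 ± 0.26 and -1.43 ± 0.44. Over the 15 genes the median log2 ratio was -0.31 for C57BL/6J and -0.40 for FVB/N, with 11 and 9 below 0 and 4 below -1 in FVB/N (2.68% of all promoters). In FVB/N 4 of the 15 were above 0, with Tex101 at 0.67, Taf7l at 0.31, Dmrt1 at 0.30 and Stra8 at 0.11. In FVB/N it was -0.48 with equal sums and -1.05 with equal medians, against 0.29 and -0.18 for all promoters. In C57BL/6J it was 0.15 with equal sums. None of the 15 was separated as deposited. Promoters of this set are commonly unmethylated in sperm and methylated in somatic cells, so their level can also read somatic DNA in a sample, and its part in the result was not tested. Tex101, Stag3 and Hormad1, named after their values were seen, had 16.9, 16.1 and 13 normalized reads in C57BL/6J controls, above the median of 5.0 over all promoters, so not every probe of the set was low in sperm. Somatic cells seen under the microscope were the authors' ground for excluding a sample, so the samples sequenced had passed this check. Sperm DNA of the control and DEHP groups had 25.3, 18.0, 18.8 and 17.5 normalized reads at H19 in the order controls and DEHP of C57BL/6J, then controls and DEHP of FVB/N. Meg3 had 25.8, 9.2, 7.0 and 5.2, and Rasgrf1 had 2.4, 3.0, 3.7 and 2.6. These loci are imprinted by methylation from sperm, but the imprinting marks lie upstream and need not fall inside the probes, so the values do not check the sperm state. The 3 summed to 53.5, 30.2, 29.5 and 25.3. The probes of 12 imprinted genes listed for a promoter methylated in oocytes summed to 79.9, 59.0, 56.7 and 59.5, with medians of 4.2, 4.45, 3.7 and 4.15. Here too the imprinting mark need not fall inside the probe, so these values do not check the sperm state either. Nnat was the highest of the 12 in every group, at 26.5, 9.5, 18.1 and 14.6, and none was listed at 0. Snrpn, the 1 promoter of the 12 that was separated, had 0.5, 4.0, 1.1 and 4.4, with more reads in C57BL/6J DEHP, and its probe holds no exon of Snrpn. The median log2 ratio of the 12 was 0.07 for C57BL/6J and 0.08 for FVB/N.

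Genes of control after meiosis, the chromatin and RNA regulators and kinases of the spermatid, were 25, with median log2 ratios of -0.09 for C57BL/6J and 0.27 for FVB/N, which were 0.33 with equal sums in the former and -0.26 with equal medians in the latter. Tssk2, a testis serine kinase, had 35.8 ± 9.1 and 14.6 ± 6.4 for C57BL/6J and 22.8 ± 7.2 and 14.8 ± 5 for FVB/N, with log2 ratios of -1.24 ± 0.31 and -0.59 ± 0.28, and its probe also covers exons of Tssk1 and Dgcr2. Its paralog Tssk5 had 16.2, 14.0, 14.2 and 14.9 in the order of groups given above. Boll, a DAZ family RNA binding protein, stayed at or under 1 normalized read in every group.

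Genes of the acrosome and head were 19, with median log2 ratios of -0.13 for C57BL/6J and 0.21 for FVB/N (0.36 with equal sums and -0.28 with equal medians). Acrbp had 27.7 ± 10.4 and 26.9 ± 4.8 in the DEHP groups, so its log2 ratio was -1.52 ± 0.33 for C57BL/6J and -0.76 ± 0.24 for FVB/N. Capza3, an actin capping protein, had 28.9 ± 8.7 and 17.6 ± 4.7 for C57BL/6J and 17.1 ± 1.8 and 18.5 ± 3.1 for FVB/N. Both were highest in C57BL/6J controls. Gopc, which carries vesicles from the Golgi to the acrosome, had 1.2, 1.0, 1.6 and 2.0.

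Genes of the flagellum were 42, with median log2 ratios of 0.01 for C57BL/6J and 0.34 for FVB/N (0.45 with equal sums and -0.23 with equal medians). In C57BL/6J 6 were above 1 and 7 below -1, and in FVB/N 9 were above 1 and 1 below -1, where all promoters had 5.09%, 10.7%, 14.4% and 2.68%. Odf3 had 21.3 ± 10.5 and 23.7 ± 4.8 in the DEHP groups and Catsper4 had 19.4 ± 5.9 and 15 ± 4.8, with log2 ratios in C57BL/6J of -1.22 ± 0.42 and -1.49 ± 0.33. Their ranges overlapped with those of the controls in both strains as deposited, and Odf3 was separated in FVB/N with equal medians. Catsperb, at the bottom of the range in controls, had 2.3 ± 1.2 in C57BL/6J DEHP and 3.8 ± 1.5 in FVB/N DEHP, with log2 ratios of 1.14 ± 0.35 and 1.88 ± 0.36. Odf2, of the outer dense fibres, had 2.4, 3.5, 3.1 and 4.7.

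**Figure D5:**
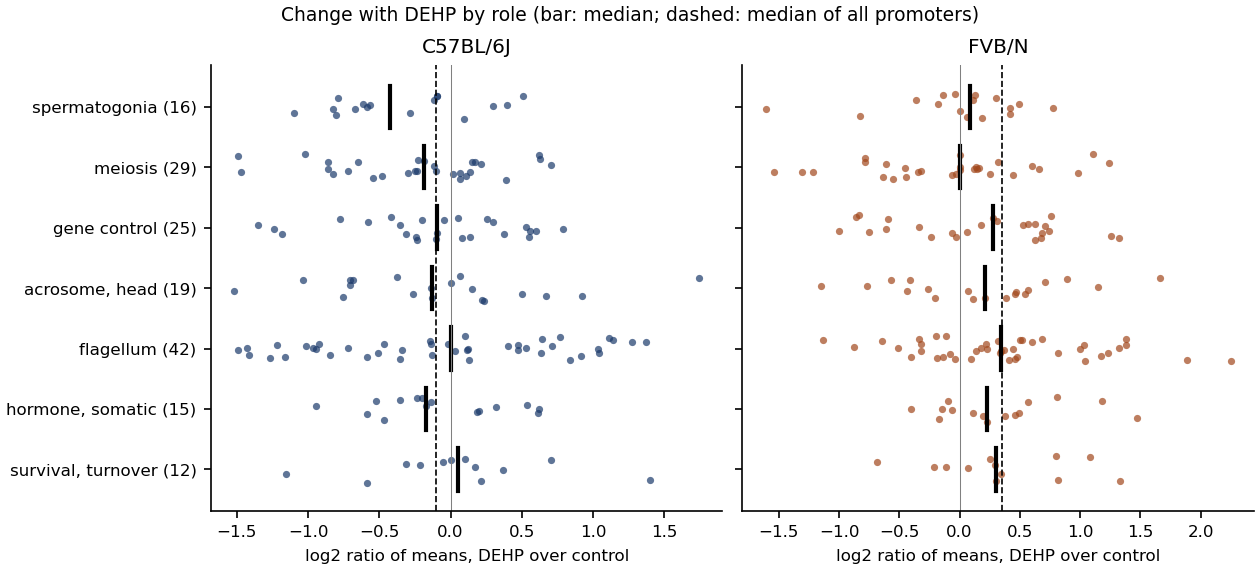
Log2 ratio of the authors' means, DEHP over control, for the promoters in 7 groups by role (number of promoters in brackets), with C57BL/6J on the left and FVB/N on the right, a bar at each median and a dashed line at the median of all promoters. In every role promoters lie on both sides of the dashed line in both strains.

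Genes of the somatic cells and hormones of the testis were 15, with medians of -0.17 for C57BL/6J and 0.23 for FVB/N (0.30 with equal sums and -0.30 with equal medians), and 0 were separated. Apob, of lipid transport, had 20.7, 17.4, 16.0 and 21.1 normalized reads, and Cldn11, of the Sertoli cell barrier, had 20.8, 13.5, 18.6 and 16.4. Genes of cell survival and protein turnover were 12, with medians of 0.05 and 0.30 (0.51 for C57BL/6J with equal sums, -0.02 and -0.18 with equal medians). Bax, which promotes apoptosis, had 4.1, 3.1, 2.0 and 2.8, and Bcl2l1, which opposes it, had 14.4, 12.3, 5.4 and 10.3. Klhl10, an adaptor of a ubiquitin ligase in spermatids, had 12.6 ± 5.5 and 5.1 ± 2.7 for C57BL/6J and 8.5 ± 5.3 and 7.2 ± 1.9 for FVB/N. The remaining 192 promoters were in none of these 7 lists or the set of germ cell genes above, with medians of -0.24 and 0.26.

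Comparison of the strains asked whether the genetic background set the level of these promoters. In controls 1 promoter was separated with more reads in C57BL/6J (1.06% of all promoters), Ctsh, and 0 with more in FVB/N (0.0267%). With equal sums or equal medians Ctsh was not separated, and Rpl10l and D1Pas1, the latter named after its values were seen, were higher in FVB/N controls (0.111% and 0.129% of all promoters under these scales). In DEHP sperm 0 were separated in either direction (0.307% and 0.0311%). The median log2 ratio of C57BL/6J over FVB/N was 0.46 in controls and 0.05 in DEHP as deposited, against 0.54 and 0.04 for all promoters. In controls it turned to -0.071 with equal sums and to -0.12 with equal medians, against 0.00 and -0.04 for all promoters. Above 1 were 40 promoters in controls (16.4%) and 7 in DEHP (2.69%), and below -1 were 2 (0.556%) and 1 (0.298%). In controls the split was 6 and 19 with equal sums (3.21% and 2.55%) and 7 and 23 with equal medians (3.5% and 4.14%), so its direction rests on the scale. At least 1 variant between the strains lay in 152 of the 350 promoters (43.4%), against 46.1% of all. The 39 promoters with 10 or more variants had a median as deposited of 0.80 in controls and 0.30 in DEHP, and the 198 without a variant had 0.35 and 0.00. The same classes of all promoters had 0.80 and 0.31, and 0.49 and 0.00. Reads of both strains were aligned to mm10, and the paper names C57BL/6J as the strain of the usual reference genome. How variants affected the alignment of FVB/N reads was not tested.

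Ctsh, which encodes the lysosomal protease cathepsin H, was the 1 promoter past 1 in opposite directions. It had 8.5 ± 2.7 normalized reads in C57BL/6J controls, 2.9 ± 1.2 with DEHP, 0.9 ± 1.3 in FVB/N controls and 5.4 ± 1.7 with DEHP. By its means it was lower in DEHP in C57BL/6J, with a log2 ratio of -1.28 ± 0.27, and higher in FVB/N, with 1.75 ± 0.47, and the difference of the log2 ratios was -3.04 ± 0.55. Control and DEHP ranges overlapped in both strains, at 3.53 to 13.5 and 0.614 to 5.19 for C57BL/6J and at 0 to 3.36 and 2.22 to 8.58 for FVB/N. Its probe held 19 CG sites and was 64.6% repeat-masked. The signs were kept under each scale, pseudocount and centring tried, with values of -1.52 to -0.81 for C57BL/6J and 1.04 to 2.46 for FVB/N. Among all promoters, 5 were past 1 in this pattern, Ctsh included, and 4 in the reverse one. As deposited, the next largest differences were -1.87 ± 0.91 in Golga3, a golgin, -1.82 ± 0.54 in Rad18, a ubiquitin ligase of DNA repair, -1.65 ± 0.49 in Pgm3, of amino sugar synthesis, and -1.65 ± 0.62 in Serpina5, the protein C inhibitor. This order depends on the scale: with equal sums Sycp3 had log2 ratios of 0.52 for C57BL/6J and -1.33 for FVB/N, which lie further apart than those of Golga3, at -0.09 and 1.25. The difference over all promoters was -0.50 as a median and over the 350 was -0.41.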

How the data were processed

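The members and gene lists were chosen with earlier results of these data known. The authors aligned read-pairs to mm10 with Bowtie 0.12.7, removed pairs with several positions, more than 600 bp apart or without a CpG, counted pairs per promoter-probe and then used edgeR for normalization. The signal values are the group mean and SD of normalized reads over 5 libraries, deposited with 1 decimal. The expression score of each gene was added by the authors, and its scale is not given in the sources used here. The numbers of CG sites and variants are the authors' annotation. Also deposited and not used are 9 columns of the authors' own comparisons (log2 fold change, p-value and FDR). The paper gives depth as an average for each treatment, higher for DEHP than for controls. Values of single libraries were not analysed here, so the depth of each library is unknown, no test was made and the authors' SD is the measure of error. The planned fallback for group means was used.

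Computed here were log2 ratios of means with a pseudocount of 1, standard errors by the delta method, and separation at 1.79 SD, the farthest that 1 of 5 values can lie from their mean, with a rounding step of 0.05 on mean and SD. The separation was tested on simulated data. Filters on low values were used as alternatives only. Exons, repeats and windows came from GRCm38.p6 with GENCODE and RefSeq annotation. CG numbers were equal to those of GRCm38.p6 in 317 of 350 probes (90.6%) and within 2 in all. Another probe of the table shared bases with 60 of the 350 probes, in 0 cases both of them among the 350. A symbol that a spreadsheet had turned into a date was read as Sept4 by its gene ID.

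Genes named are the separated promoters, the 5 highest and 5 lowest in controls, the 5 with the largest difference between strains, the 2 highest of each list, and 17 fixed genes, of which Crem was not analysed here and Akap4 and Rabl2 lack the spermatogenesis mark. Some genes that this rule gives are not reported here. Others are said to be chosen after their values were seen. Alternatives were equal sums or medians, a mean of the 4 groups of at least 1, ranges of 1 SD, a pseudocount of 0.1 and ratios less the median of the CG decile. Ratios less the median of the level decile, and both scales for the sizes between strains, were added after seeing the data. Python 3.11.15, numpy 2.4.6, pandas 2.3.3 and matplotlib 3.10.9 were used.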

Additional observations from a re-analysis of the deposited data

How the results depend on the processing

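Of the 520 values of 44 named promoters under the alternatives, 477 moved by less than the spread between libraries and 43 by more, and 0 separated promoters changed sign in the strain of their separation. The filter on a mean of at least 1 only drops promoters and cannot change a ratio. Its values are thus among the 477 by construction, and the 477 overstates how little the ratios moved. Of the 44 promoters, 10 changed sign in C57BL/6J with equal sums and 11 in FVB/N with equal medians, 9 in either strain less the level decile, 2 in C57BL/6J and 6 in FVB/N less the CG decile, and 1 each in C57BL/6J with equal medians and in FVB/N with equal sums. The number separated in C57BL/6J went from 2 to 4 with equal sums (4 higher, 0 lower, against 1.02% and 0.129% of all promoters) and to 39 with ranges of 1 SD (8 higher, 31 lower, against 2.88% and 11.2%). In FVB/N it went from 7 to 12 with equal medians (0 higher, 12 lower, against 0.125% and 3.25%) and to 35 with ranges of 1 SD (21 higher, 14 lower, against 7.4% and 3.4%). Between control strains it went from 1 to 2 with equal sums and with equal medians (0 higher, 2 lower, against 0.307% and 0.111%, and 0.289% and 0.129%), and to 23 with ranges of 1 SD (20 higher, 3 lower, against 8.81% and 0.187%), and between DEHP strains from 0 to 5 with ranges of 1 SD (5 higher, 0 lower, against 2.22% and 0.507%). Ranges of 1 SD do not show that every library is apart. Past a log2 ratio of 1 lay 49 promoters in either strain, 75 for C57BL/6J (27 above, 48 below, against 11.5% and 14.6%) and 84 for FVB/N (57 above, 27 below, against 25.8% and 5.4%) with a pseudocount of 0.1, and 21 in C57BL/6J less the median of the level decile (8 above, 13 below, against 3.39% and 3.7%). Less the median of the CG decile the split in FVB/N was 16 above and 34 below (4.04% and 6.26% of all promoters), and less the level decile 9 and 32 (3.49% and 5.14%). The median log2 ratio in C57BL/6J, -0.15, turned to 0.27 with equal sums and to 0.039 less the CG decile. That in FVB/N, 0.23, turned to -0.31 with equal medians, -0.051 less the CG decile and -0.15 less the level decile. Between strains, scales added after seeing the data turned the median in controls, 0.46, to -0.071 with equal sums and -0.12 with equal medians, and that in DEHP, 0.046, to -0.046 with equal medians. Past 1 between control strains were 42, and 25 with equal sums (6 above, 19 below, against 3.21% and 2.55%), and between DEHP strains 8, and 5 with equal medians (4 above, 1 below, against 1.92% and 0.44%). The cause of these changes was not tested beyond the construction of each alternative.

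No paired analysis was made, because the values used are means over the 5 libraries of a group and the sample labels name no pairs. Leaving out each library was not run, as single libraries were not analysed here. Low levels limit the comparison, since 289 of the 350 promoters stayed under 15 normalized reads in every group. A promoter that was not separated is not shown to be alike in both groups.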
